A study of Caenorhabditis elegans with 12 samples.

Results

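The 49 genes described here encode the vacuolar proton pump (V-ATPase) and the autophagy machinery of *C. elegans*. They are every gene in the 46778 genes of the deposited tables whose WormBase name starts with *vha-*, *atg-*, *lgg-* or *epg-*, together with *bec-1*, *unc-51*, *unc-32*, *vps-34*, *lmp-1* and *lmp-2*. The rule uses names and no measured values, but the members were chosen with earlier results of these data known. The 21 V-ATPase genes are *vha-1* to *vha-20* and *unc-32*, and the other 28 act in autophagy or lie in the lysosome membrane. Each was counted 38 times or more in all libraries, the fewest for *atg-10*, and all 49 were tested.

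The V-ATPase pumps protons into lysosomes and other compartments, and in some cell types across the outer membrane. Its V1 sector lies in the cytosol and hydrolyses ATP, while its V0 sector lies in the membrane and carries the protons. Autophagy wraps cytoplasm in a double membrane that fuses with lysosomes, so that the V-ATPase acidifies the compartment in which the autophagic cargo is degraded. In worms autophagy clears maternal proteins and paternal organelles in embryos, and it is required for many forms of long life.

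RNA was sequenced from whole adult N2 worms, the standard wild-type strain, in 4 groups of 3 replicates, to ask which transcripts respond to glucose-rich diets when *lpin-1* is knocked down. *lpin-1* encodes lipin, a phosphatidic acid phosphatase, and the labels spell its knockdown lpn-1 RNAi. The groups were *lpin-1(RNAi)* with glucose-rich diets, *lpin-1(RNAi)* with control diets, *control(RNAi)*, called WT, with glucose-rich diets, and WT with control diets. All had fed on bacteria making double-stranded RNA since the egg stage, with 10 mM IPTG as inducer, at 20 °C. All 4 groups also received 10 μM FUdR, which keeps eggs from developing, from day 1 of adulthood, and 2% additional glucose set the glucose-rich plates apart. RNAi by feeding lowers a transcript in most tissues without removing it, and RNA of whole worms mixes all tissues, so that fewer cells of a type and less RNA per cell cannot be told apart.

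The *lpin-1* transcript had 108, 105 and 122 CPM in *lpin-1(RNAi)* libraries, against 182, 161 and 151 CPM in WT libraries on glucose-rich diets. On control diets it had 88.2, 94.7 and 84.8 CPM in *lpin-1(RNAi)* libraries, against 167, 163 and 144 CPM in WT libraries. CPM are counts scaled by TMM to a common library size of 1e6. The knockdown left 67.8% of the WT level on glucose-rich diets (log2 fold change -0.56, SE 0.10, adjusted *p* = 0.00062) and 56.5% on control diets (log2 fold change -0.82, SE 0.10, adjusted *p* = 1.6e-05), and within *lpin-1(RNAi)* worms the transcript was higher on glucose-rich diets (log2 fold change 0.32, SE 0.10, adjusted *p* = 0.046). Every adjusted *p* given here comes from edgeR's quasi-likelihood test over 14696 genes with the Benjamini-Hochberg correction, and a gene was called at an adjusted *p* under 0.05. No source used here says whether replicates were separate cultures, so the tests measure the spread between these libraries, which may be technical. Library totals were 16546027 to 31534284 counts. Markers of intestine, excretory cell, germline, sperm, hypodermis, muscle and neurons were detected, with no marker at 0 in all libraries. On control diets, replicates 1 and 2 of each RNAi group deviated from their group mean with exon length in opposite directions. In the 750 tested genes with at least 4 kb of exon the median log2 deviation was -0.35 and 0.34 in *lpin-1(RNAi)* replicates 1 and 2, and -0.26 and 0.32 in WT replicates 1 and 2. Of the 49 genes, *atg-2*, *epg-5* and *epg-7* are this long. In the 4471 tested genes with under 1 kb of exon, the median was 0.10 and -0.10 in *lpin-1(RNAi)* replicates 1 and 2. It was 0.04 and -0.13 in WT replicates 1 and 2. The members this short are *vha-1*, *vha-2*, *vha-3*, *vha-4*, *vha-9*, *vha-10*, *vha-17*, *atg-3*, *atg-10*, *lgg-1* and *lgg-3*. Exons of *vha-5*, *vha-17*, *vha-19*, *atg-10*, *atg-13*, *epg-2*, *epg-5* and *epg-8*, besides those named later, overlap a gene on the other strand by 8 to 134 bases.

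Nearly all V-ATPase genes fell and most autophagy genes rose in *lpin-1(RNAi)* worms, on both diets. On glucose-rich diets, 19 of 21 V-ATPase genes were lower in *lpin-1(RNAi)* than in WT and *unc-32* was higher, while 19 of 28 autophagy and lysosome genes were higher and *lmp-2* was lower. Of all tested genes, 15.8% were called lower and 16% higher in that comparison. On control diets, 20 of 21 V-ATPase genes were lower and *unc-32* was higher, and 20 of 28 autophagy and lysosome genes were higher and *lmp-2* lower, against 19.8% of all tested genes called lower and 19.5% called higher. The median log2 fold change of the V-ATPase genes was -0.53 on glucose-rich diets and -0.81 on control diets, that of the autophagy and lysosome genes was 0.42 and 0.44, and that of all tested genes was 0.03 and 0. The 2 comparisons of RNAi share no libraries, but both come from 1 model of all 12 libraries with a shared estimate of the spread. How far calls overlapped between diets over all tested genes was not counted. The 20 genes called lower on glucose-rich diets were all among the 21 called lower on control diets, and 19 of the 20 called higher on glucose-rich diets were among the 21 called higher on control diets. *epg-2*, *epg-3*, *epg-7*, *atg-10*, *atg-16.1* and *lgg-3* were called on neither diet. The replicate numbers have no stated origin, but deviations of same-numbered libraries correlated in the comparisons of RNAi. The counts above come from the fit without a block. In a fit blocked on the number, *vha-18*, *atg-3*, *atg-13* and *epg-7* were also called on glucose-rich diets, while no member's call changed on control diets. Over all tested genes the block called 2986 higher and 2806 lower on glucose-rich diets, against 2353 and 2321 without it.

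**Figure D1:**
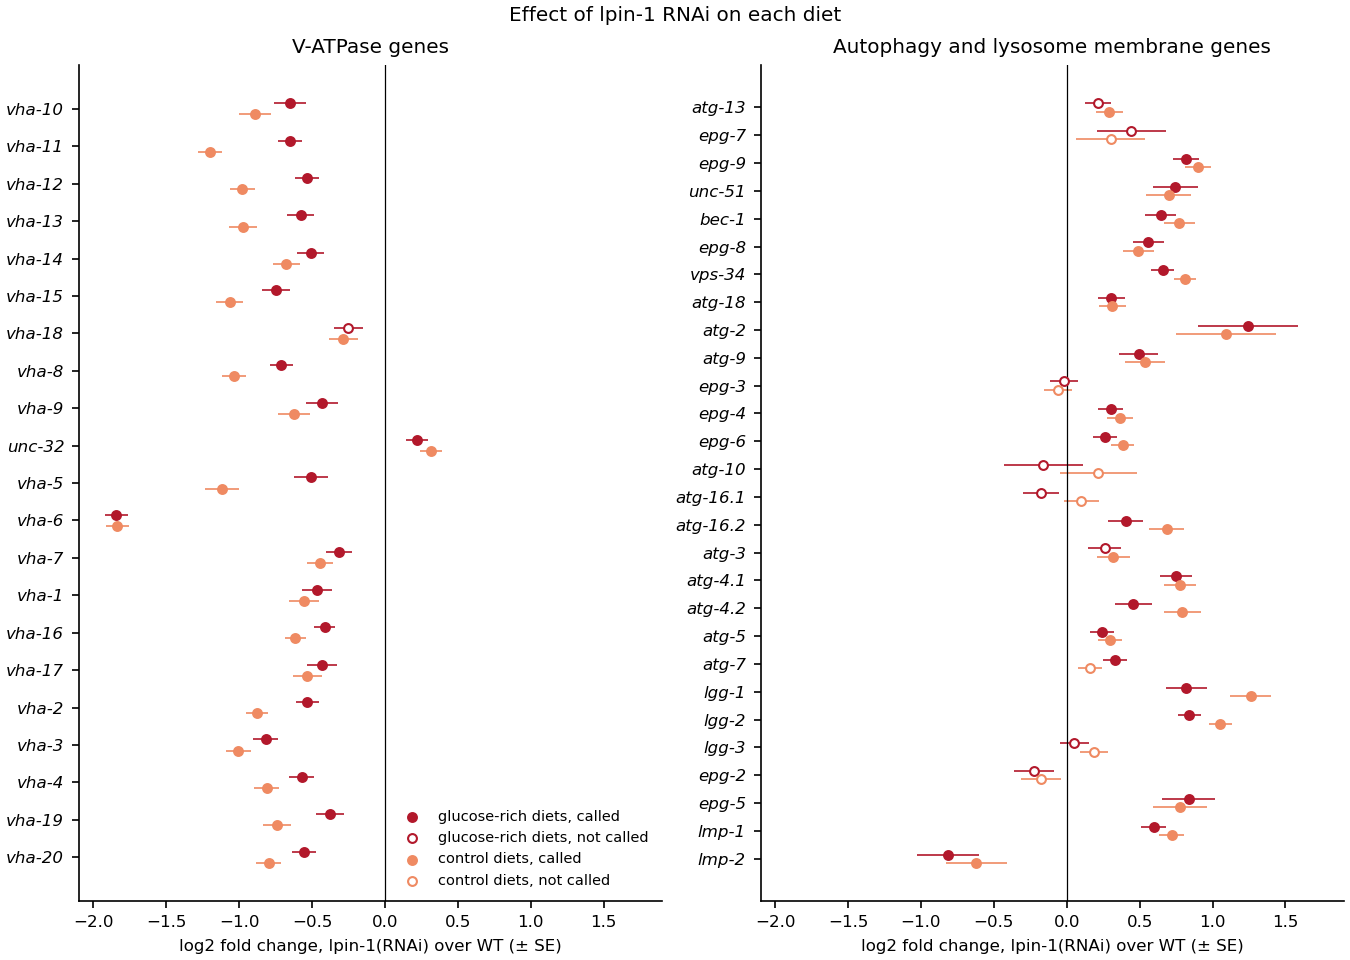
Log2 fold change of *lpin-1(RNAi)* over WT (horizontal axis, with SE) for each of the 21 V-ATPase genes (left) and 28 autophagy and lysosome membrane genes (right), on glucose-rich diets (dark red) and control diets (orange); filled circles passed an adjusted *p* under 0.05. The V-ATPase genes lie left of 0 except *unc-32*, with *vha-6* farthest left at -1.84 on both diets, and the called autophagy and lysosome genes lie right of 0 except *lmp-2*.

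The changes were mostly under 2-fold. On glucose-rich diets *vha-6* was the 1 gene called lower by more than 2-fold and *atg-2* the 1 called higher, against 4.21% and 8.04% of all tested genes. On control diets 6 V-ATPase genes (*vha-6*, *vha-11*, *vha-5*, *vha-15*, *vha-8* and *vha-3*) were lower and 3 autophagy genes (*lgg-1*, *atg-2* and *lgg-2*) higher by more than 2-fold, against 5.61% and 10.0%. The libraries of the groups did not overlap for most members. On glucose-rich diets all 3 *lpin-1(RNAi)* libraries lay below all 3 WT libraries for 20 V-ATPase genes, where 25.6% of all tested genes did so, and above them for 22 autophagy and lysosome genes, where 26.3% did. On control diets the same held for 20 V-ATPase genes (22.1% of all tested genes) and 20 autophagy and lysosome genes (22.5%).

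Scaling by library totals alone, in place of TMM, moved the median of all genes to 0.23 on glucose-rich diets and 0.25 on control diets. With it 3829 genes were called higher and 1117 lower on glucose-rich diets, against 2353 and 2321 with TMM, and 4622 higher and 1469 lower on control diets, against 2869 and 2903 with TMM. The medians with library totals were -0.33 for the V-ATPase genes and 0.62 for the autophagy and lysosome genes on glucose-rich diets, and -0.56 and 0.69 on control diets. Of the 21 V-ATPase genes, 12 were then called lower on glucose-rich diets and 16 on control diets, and 20 of 21 log2 fold changes stayed below 0 on each diet. Left-out libraries mattered most for the genes that rose on glucose-rich diets. Against 20 members called higher with all libraries, 11, 11 and 12 were called higher without replicate 1, 2 or 3 of the *lpin-1(RNAi)* glucose-rich group. Over all tested genes, 1815, 1696 and 1684 were called higher in the same 3 fits, against 2353 with all libraries. The median of all tested genes was then -0.04, -0.03 and -0.04, against 0.03 with all libraries. When only the groups compared were fitted, *unc-32*, *vha-18*, *atg-2*, *atg-3*, *atg-5*, *atg-13*, *atg-18*, *epg-4* and *lmp-2* lost their calls on control diets (adjusted *p* from 0.056 to 0.14). With no filter on low counts, *unc-32*, *atg-5*, *atg-18*, *epg-4* and *epg-6* lost theirs on glucose-rich diets (adjusted *p* from 0.10 to 0.26), as did *vha-18* and *atg-3* on control diets.

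Of the 9 genes of the V1 sector, 8 fell in *lpin-1(RNAi)* on glucose-rich diets, the exception being *vha-18*, and 9 on control diets. *vha-11* encodes subunit C, which ties the sector to the membrane stalks. On glucose-rich diets, *vha-11* had 149, 142 and 142 CPM in *lpin-1(RNAi)* libraries, against 226, 231 and 224 CPM in WT libraries (log2 fold change -0.65, SE 0.08, adjusted *p* = 4.2e-05). On control diets, it had 108, 129 and 111 CPM in *lpin-1(RNAi)* libraries, against 259, 276 and 263 CPM in WT libraries (log2 fold change -1.20, SE 0.08, adjusted *p* = 9.9e-08). The WT libraries were above the *lpin-1(RNAi)* libraries on each diet, and the 2 groups lay farther apart on control diets. *vha-12* and *vha-13*, the B and A subunits that form the catalytic head, had log2 fold changes of -0.54 and -0.58 on glucose-rich diets and -0.98 and -0.97 on control diets. Subunits E (*vha-8*), F (*vha-9*), G (*vha-10*) and D (*vha-14*), which make up the central and peripheral stalks, had log2 fold changes between -0.71 and -0.43 on glucose-rich diets and between -1.03 and -0.63 on control diets. Exons of *vha-13* share 13 bases with a neighbouring gene on the same strand, *Y49A3A.3*.

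*vha-8*, subunit E, changed most of these 4. On glucose-rich diets, *vha-8* had 284, 283 and 289 CPM in *lpin-1(RNAi)* libraries, against 459.7, 449.9 and 491 CPM in WT libraries (log2 fold change -0.71, SE 0.08, adjusted *p* = 1.9e-05). On control diets *vha-8* had 309.6, 268 and 282 CPM in *lpin-1(RNAi)* libraries, against 610.2, 546 and 604 CPM in WT libraries (log2 fold change -1.03, SE 0.08, adjusted *p* = 3.9e-07). The 6 *lpin-1(RNAi)* libraries overlapped across diets, while the WT libraries on glucose-rich diets were all below those on control diets.

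Subunit H, which regulates the pump, is made by 2 genes, of which *vha-15* had the larger fold changes. For *vha-15*, glucose-rich diets gave 156, 149 and 151 CPM in *lpin-1(RNAi)* libraries, against 249, 242 and 274 CPM in WT libraries (log2 fold change -0.75, SE 0.09, adjusted *p* = 3.8e-05). On control diets, *vha-15* had 172, 144 and 153 CPM in *lpin-1(RNAi)* libraries, against 337, 294 and 349 CPM in WT libraries (log2 fold change -1.07, SE 0.09, adjusted *p* = 9.7e-07). For *vha-18*, glucose-rich diets gave 93.5, 81.8 and 96.9 CPM in *lpin-1(RNAi)* libraries, against 108, 105 and 111 CPM in WT libraries (log2 fold change -0.25, SE 0.10, adjusted *p* = 0.072). On control diets, *vha-18* had 90.5, 82.6 and 92.2 CPM in *lpin-1(RNAi)* libraries, against 107, 94.99 and 122 CPM in WT libraries (log2 fold change -0.29, SE 0.10, adjusted *p* = 0.037). The groups of *vha-18* did not overlap on either diet but lay close. When same-numbered libraries were paired by a block, its fall was called on glucose-rich diets too (adjusted *p* = 0.0138). On control diets its call was lost with any 1 of 5 libraries left out and with library totals (adjusted *p* = 0.84). Per kilobase of exon, *vha-18* made up 39.7 to 43.4% of the H subunit transcripts in *lpin-1(RNAi)* on glucose-rich diets and 38.8 to 42.0% in *lpin-1(RNAi)* on control diets. In WT it made up 32.7 to 34.2% on glucose-rich diets and 27.5 to 29.5% on control diets. The shares were thus higher in every *lpin-1(RNAi)* library than in every WT library. The difference between the changes of the 2 genes was not tested, and the last exons of *vha-18* overlap *F52E1.2* on the other strand by 57 bases.

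The a subunit of V0 decides where the pump is placed and comes from 4 genes with different sites of expression. *vha-6* is known from the apical membrane of the intestine, *vha-5* from the excretory cell and hypodermis, *vha-7* from the hypodermis and uterus, and *unc-32* from neurons and other tissues. In these data the 4 genes moved apart: *vha-6* fell most of all 49 genes, *vha-5* and *vha-7* fell with smaller fold changes, and *unc-32* rose.

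*vha-6* lies on chromosome II (11435210 to 11438452, minus strand, WBcel235) and overlaps no exon of another gene. On glucose-rich diets, *vha-6* had 93.2, 85.2 and 94.7 CPM in *lpin-1(RNAi)* libraries, against 322, 321 and 337 CPM in WT libraries (log2 fold change -1.84, SE 0.08, adjusted *p* = 3.9e-09). On control diets it had 126, 128 and 112 CPM in *lpin-1(RNAi)* libraries, against 440.4, 429 and 439 CPM in WT libraries (log2 fold change -1.84, SE 0.08, adjusted *p* = 2.2e-09). The *lpin-1(RNAi)* libraries held 27.9% of the WT mean on glucose-rich diets and 28.0% on control diets, and its adjusted *p* stayed at or below 1.6e-06 under every other setting and with any library left out. The summed level of 7 intestine markers was 394 to 452 CPM in *lpin-1(RNAi)* and 703 to 829 CPM in WT on glucose-rich diets, and 555 to 629 CPM in *lpin-1(RNAi)* and 759 to 850 CPM in WT on control diets. Of these markers, 5 were lower and 2 higher in *lpin-1(RNAi)* on glucose-rich diets, and 4 were lower and 2 higher on control diets. Their part in the fall of *vha-6* was not tested.

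*unc-32* was the 1 V-ATPase gene that rose. On glucose-rich diets, *unc-32* had 313, 322 and 307 CPM in *lpin-1(RNAi)* libraries, against 282, 266 and 262 CPM in WT libraries (log2 fold change 0.22, SE 0.07, adjusted *p* = 0.040). On control diets *unc-32* had 286, 316 and 323 CPM in *lpin-1(RNAi)* libraries, against 251, 242 and 251 CPM in WT libraries (log2 fold change 0.32, SE 0.07, adjusted *p* = 0.0043). The groups did not overlap on either diet, but the rise was small, and on glucose-rich diets its call was lost with any 1 of 10 libraries left out, the adjusted *p* reaching 0.29. On control diets the call was lost when only the 2 groups compared were fitted (adjusted *p* = 0.062). The summed level of 6 neuron markers was 277 to 326 CPM in *lpin-1(RNAi)* and 159 to 173 CPM in WT on glucose-rich diets, and 310 to 323 CPM in *lpin-1(RNAi)* and 156 to 174 CPM in WT on control diets. *snb-1*, a marker named after its values were seen, held most of the sum. The other 5 summed to 55.8 to 64.5 CPM in *lpin-1(RNAi)* and 42.2 to 48.25 CPM in WT on glucose-rich diets. On control diets these 5 summed to 53.3 to 59.35 CPM in *lpin-1(RNAi)* and 45.2 to 48.7 CPM in WT. Of all 6 markers, 3 were higher on glucose-rich diets and 2 on control diets, and none was called lower. Their part in the rise of *unc-32* was not tested. Exons of *unc-32* overlap a non-coding gene on the other strand, *ZK637.20*, by 38 bases.

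*vha-5* and *vha-7* also fell, with smaller fold changes than *vha-6*. On glucose-rich diets, *vha-5* had 123, 113 and 110 CPM in *lpin-1(RNAi)* libraries, against 154, 154 and 184 CPM in WT libraries (log2 fold change -0.51, SE 0.12, adjusted *p* = 0.0044). On control diets *vha-5* had 114, 102 and 109.9 CPM in *lpin-1(RNAi)* libraries, against 232, 199.9 and 274 CPM in WT libraries (log2 fold change -1.12, SE 0.12, adjusted *p* = 5.1e-06). The WT libraries of *vha-5* on control diets were the highest and the most spread. On glucose-rich diets, *vha-7* had 128, 120 and 118 CPM in *lpin-1(RNAi)* libraries, against 157, 158 and 141 CPM in WT libraries (log2 fold change -0.31, SE 0.09, adjusted *p* = 0.016). On control diets *vha-7* had 95.2, 111 and 109.7 CPM in *lpin-1(RNAi)* libraries, against 141, 154 and 134 CPM in WT libraries (log2 fold change -0.44, SE 0.09, adjusted *p* = 0.0013). The calls of *vha-5* and *vha-7* on glucose-rich diets were lost with library totals (adjusted *p* = 0.078 and 0.30), as was that of *vha-7* on control diets (adjusted *p* = 0.080), and that of *vha-7* on glucose-rich diets with either of 2 libraries left out. The 7 excretory cell markers summed to 143 to 154 CPM in *lpin-1(RNAi)* and 269 to 285 CPM in WT on glucose-rich diets, and to 99.7 to 110 CPM in *lpin-1(RNAi)* and 136 to 143 CPM in WT on control diets. These differences were those of *aqp-8*, a water channel gene named after its values were seen. The other 6 summed to 86.7 to 97.0 CPM in *lpin-1(RNAi)* and 83.0, 83.3 and 90 CPM in WT on glucose-rich diets, and to 87.6 to 97.6 CPM in *lpin-1(RNAi)* and 80.8 to 82.9 CPM in WT on control diets. Of the 7, 2 were called higher and 1 lower on glucose-rich diets, and 1 higher and 1 lower on control diets. The 6 hypodermis markers summed to 990 to 1256 CPM in *lpin-1(RNAi)* and 2333 to 2822 CPM in WT on glucose-rich diets, and to 450 to 604 CPM in *lpin-1(RNAi)* and 2297 to 2828 CPM in WT on control diets, with 1 called lower on each diet. That marker, the collagen gene *col-19*, held most of the sum, and it too is named after its values were seen. The other 5 summed to 176 to 187 CPM in *lpin-1(RNAi)* and 189 to 209 CPM in WT on glucose-rich diets, and to 125 to 162 CPM in *lpin-1(RNAi)* and 154 to 197 CPM in WT on control diets. The part of these markers in the fall of *vha-5* and *vha-7* was not tested.

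**Figure D2:**
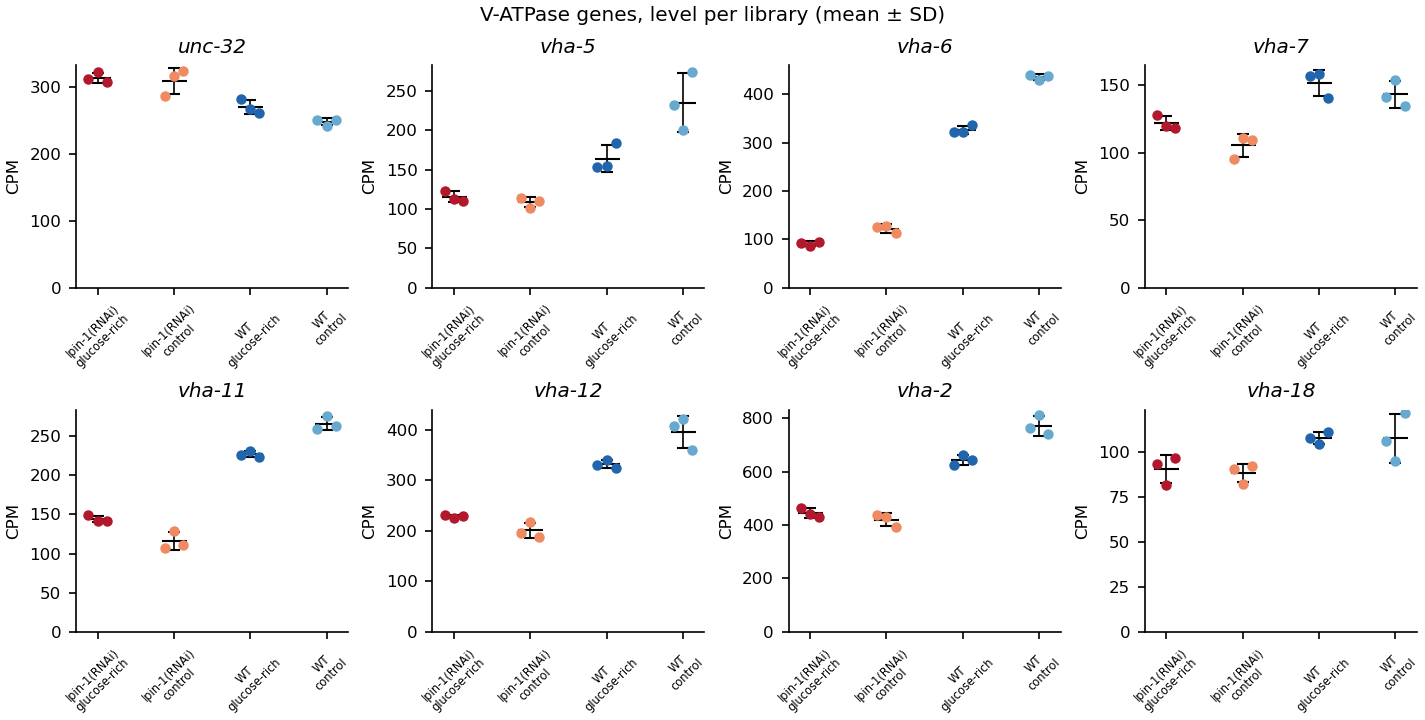
Level in every library (vertical axes, CPM, from 0) of 8 V-ATPase genes in the 4 groups; dots are libraries, the long bar is the mean and the whiskers are the SD of 3. The *lpin-1(RNAi)* libraries of *vha-6* lie between 85.2 and 128 CPM, all below the WT libraries at 321 to 440 CPM, and those of *unc-32* lie above the WT libraries of the same diet.

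Counted per kilobase of exon, so that the genes can be set against each other, *vha-6* made up 16.7 to 18.7% of the a subunit transcripts in *lpin-1(RNAi)* on glucose-rich diets and 21.2 to 24.8% in *lpin-1(RNAi)* on control diets. In WT it made up 41.3 to 42.3% on glucose-rich diets and 45.3 to 47.8% on control diets. *unc-32* took 44.2 to 46.9% in *lpin-1(RNAi)* on glucose-rich diets and 41.9 to 45.6% in *lpin-1(RNAi)* on control diets, against 24.5 to 26.9% in WT on glucose-rich diets and 19.3 to 20.1% in WT on control diets. The most abundant a subunit transcript was therefore *unc-32* in all 6 *lpin-1(RNAi)* libraries and *vha-6* in all 6 WT libraries. *vha-5* held 19.8 to 21.3% and 17.3 to 20.4% in *lpin-1(RNAi)* on glucose-rich and control diets, against 17.9 to 21.0% and 20.3 to 25.8% in WT on the same diets. The 4 genes together summed to 187 to 195 CPM per kb in *lpin-1(RNAi)* and 285 to 295 CPM per kb in WT on glucose-rich diets, and to 189 to 198 CPM per kb in *lpin-1(RNAi)* and 333 to 359 CPM per kb in WT on control diets.

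**Figure D3:**
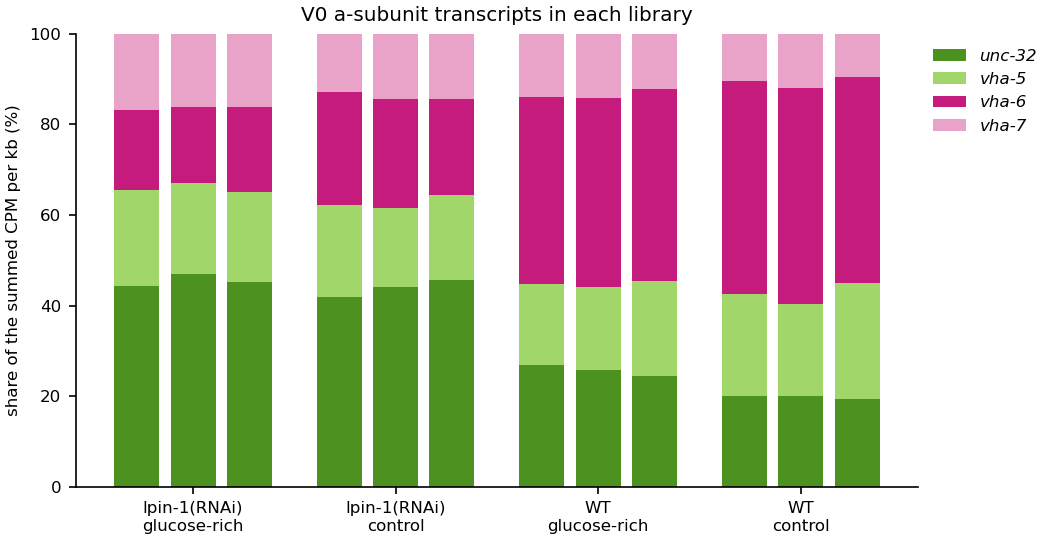
Share of the summed CPM per kb of the 4 V0 a subunit genes (vertical axis, percent) taken by each gene, with 1 bar per library and the 4 groups along the horizontal axis. *unc-32* (dark green) takes 41.9 to 46.9% in the *lpin-1(RNAi)* libraries and 19.3 to 26.9% in the WT libraries, and *vha-6* (magenta) takes 16.7 to 24.8% in the *lpin-1(RNAi)* libraries and 41.3 to 47.8% in the WT libraries.

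The other 6 V0 genes fell in *lpin-1(RNAi)* worms on each diet. The proteolipid ring, through which the protons pass, is built from subunit c (*vha-1*, *vha-2* and *vha-3*) and subunit c″ (*vha-4*). On glucose-rich diets, *vha-2* had 465, 441 and 429 CPM in *lpin-1(RNAi)* libraries, against 626, 663 and 642 CPM in WT libraries (log2 fold change -0.53, SE 0.08, adjusted *p* = 0.00015). On control diets *vha-2* had 438, 429 and 392 CPM in *lpin-1(RNAi)* libraries, against 763, 812 and 739 CPM in WT libraries (log2 fold change -0.88, SE 0.08, adjusted *p* = 1.1e-06). *vha-3*, another gene for the same subunit, had larger fold changes. On glucose-rich diets, *vha-3* had 49.1, 48.3 and 48.3 CPM in *lpin-1(RNAi)* libraries, against 85.2, 81.6 and 90.02 CPM in WT libraries (log2 fold change -0.82, SE 0.09, adjusted *p* = 8.2e-06). On control diets *vha-3* had 57.8, 49.1 and 47.8 CPM in *lpin-1(RNAi)* libraries, against 103, 99.3 and 108 CPM in WT libraries (log2 fold change -1.01, SE 0.09, adjusted *p* = 7.2e-07). For both genes the groups were well apart on each diet. The first c subunit gene, *vha-1*, changed least of the 3, with log2 fold changes of -0.47 on glucose-rich and -0.56 on control diets. *vha-4* had -0.57 and -0.81, *vha-16* (subunit d, which joins the ring to V1) -0.41 and -0.61, and *vha-17* (subunit e) -0.43 and -0.53 on the log2 scale on glucose-rich and control diets.

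Some genes of the complex are neighbours. *vha-1* and *vha-2* lie 400 bases apart on the same strand of chromosome III, and *vha-11* and *vha-3* lie 892 bases apart on the same strand of chromosome IV. The log2 fold changes of *vha-11* and *vha-3* were -0.65 and -0.82 on glucose-rich diets and -1.20 and -1.01 on control diets, so that their order differed between diets. Exons of *vha-2* overlap *R10E11.6* on the same strand by 219 bases, and reads there could have been counted for either. The deposited counts of *vha-2* held no fractional value in any library. The accessory genes, *vha-19* (related to mammalian Ac45) and *vha-20* (related to the mammalian prorenin receptor), were lower on both diets, with log2 fold changes of -0.38 and -0.56 on glucose-rich diets and -0.74 and -0.80 on control diets. With library totals *vha-1*, *vha-9*, *vha-16*, *vha-17* and *vha-19* lost their calls on glucose-rich diets (adjusted *p* = 0.11, 0.18, 0.071, 0.16 and 0.12), and *vha-1* and *vha-17* on control diets (adjusted *p* = 0.067 and 0.088).

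Autophagy starts with the UNC-51 kinase complex. *unc-51* itself, the worm ULK1 kinase, had 54.05, 54.2 and 57.7 CPM in *lpin-1(RNAi)* libraries, against 32.5, 34.1 and 32.3 CPM in WT libraries on glucose-rich diets (log2 fold change 0.75, SE 0.15, adjusted *p* = 0.0023). On control diets it had 38.6, 56.9 and 40.5 CPM in *lpin-1(RNAi)* libraries, against 23.97, 34.5 and 25.2 CPM in WT libraries (log2 fold change 0.70, SE 0.15, adjusted *p* = 0.0027), and replicate 2 was the highest library of both groups there. *epg-9*, the worm ATG101, rose more evenly. On glucose-rich diets, *epg-9* had 33.5, 39.7 and 39.1 CPM in *lpin-1(RNAi)* libraries, against 22.04, 20.6 and 20.96 CPM in WT libraries (log2 fold change 0.82, SE 0.09, adjusted *p* = 1.2e-05). On control diets *epg-9* had 41.7, 41.6 and 39.7 CPM in *lpin-1(RNAi)* libraries, against 21.8, 23.4 and 20.8 CPM in WT libraries (log2 fold change 0.90, SE 0.09, adjusted *p* = 3.2e-06). Every *lpin-1(RNAi)* library was above every WT library. *atg-13*, the regulatory subunit of the kinase complex, was called higher on control diets (log2 fold change 0.29, adjusted *p* = 0.022) and not on glucose-rich diets (0.21, adjusted *p* = 0.095), and the difference between diets was not past the threshold (interaction adjusted *p* = 0.99). With same-numbered libraries paired it was called on glucose-rich diets too (adjusted *p* = 0.0386). The call on control diets was lost with any 1 of 6 libraries left out. *epg-7*, a scaffold that links cargo to the complex, was called on neither diet (log2 fold changes 0.44 and 0.30), but was called on glucose-rich diets with the block (adjusted *p* = 0.0383).

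All 3 genes of the nucleation step, in which the VPS-34 lipid kinase marks the forming membrane with PI3P, were higher in *lpin-1(RNAi)* worms on both diets. *vps-34* averaged 97.1 ± 3.45 CPM in *lpin-1(RNAi)* and 61.6 ± 0.552 CPM in WT on glucose-rich diets (log2 fold change 0.66, SE 0.08, adjusted *p* = 2.7e-05). On control diets it averaged 104.4 ± 1.94 CPM in *lpin-1(RNAi)* and 59.5 ± 5.57 CPM in WT (SD of 3 libraries; log2 fold change 0.81, SE 0.08, adjusted *p* = 2.5e-06). *bec-1*, the worm Beclin, averaged 59.1 ± 3.20 CPM in *lpin-1(RNAi)* and 37.9 ± 1.96 CPM in WT on glucose-rich diets (log2 fold change 0.64, SE 0.11, adjusted *p* = 0.00040). The *lpin-1(RNAi)* and WT libraries did not overlap for *vps-34* or *bec-1* on either diet. On control diets *bec-1* averaged 62.3 ± 4.56 CPM in *lpin-1(RNAi)* and 36.5 ± 5.29 CPM in WT (log2 fold change 0.77, SE 0.11, adjusted *p* = 6.2e-05). *epg-8*, the worm ATG14 that directs the kinase to autophagy, rose by less, with log2 fold changes of 0.56 and 0.49 on glucose-rich and control diets.

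Of the 6 genes that supply membrane or read PI3P, 5 were higher on both diets. *atg-2* encodes a lipid transfer protein that feeds the growing membrane, and it had the largest fold among the autophagy genes on glucose-rich diets. On glucose-rich diets, *atg-2* had 77.8, 80.6 and 84.04 CPM in *lpin-1(RNAi)* libraries, against 30.3, 35.6 and 36.4 CPM in WT libraries (log2 fold change 1.24, SE 0.34, adjusted *p* = 0.015). On control diets *atg-2* had 35.8, 88.7 and 58.4 CPM in *lpin-1(RNAi)* libraries, against 13.02, 41.2 and 31.1 CPM in WT libraries (log2 fold change 1.09, SE 0.34, adjusted *p* = 0.022). The groups were apart on glucose-rich diets but overlapped on control diets, where replicate 1 was lowest and replicate 2 highest in both groups. The exons of *atg-2* add up to 7547 bases, and its libraries deviated in the direction of other long genes. Its call on control diets was lost without *lpin-1(RNAi)* replicate 2 (adjusted *p* = 0.092) and with 1 other library left out, and when only the 2 groups were fitted (adjusted *p* = 0.056). On glucose-rich diets it was lost without WT replicate 1 (adjusted *p* = 0.061). Over all genes with at least 4 kb of exon the median log2 fold change was 0.23 on glucose-rich and 0.08 on control diets. The part of length in the rise of *atg-2* was not tested.

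*atg-9*, the membrane protein of the vesicles that seed the autophagosome, had log2 fold changes of 0.49 on glucose-rich diets (adjusted *p* = 0.015) and 0.54 on control diets (adjusted *p* = 0.0068). The PI3P readers *atg-18* and *epg-6* rose by 0.31 and 0.26 on glucose-rich diets and 0.31 and 0.38 on control diets, on the log2 scale. *epg-4*, the worm EI24, rose by 0.30 and 0.37. *epg-3*, the worm VMP1, was called on neither diet, with log2 fold changes of -0.02 (SE 0.10) and -0.06 (SE 0.10). On glucose-rich diets the calls of *atg-9*, *atg-18*, *epg-4* and *epg-6* were each lost with at least 4 of the 12 libraries left out in turn, with adjusted *p* up to 0.068, 0.18, 0.16 and 0.29. On control diets that of *atg-18* was lost with any 1 of 3 libraries left out (adjusted *p* up to 0.090).

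The largest rise in transcript amount was in the ATG8 genes, whose products are joined to lipid and coat the autophagosome. *lgg-1*, related to mammalian GABARAP, lies on chromosome II (6346960 to 6347719, minus strand, WBcel235) and overlaps no exon of another gene. On glucose-rich diets, *lgg-1* had 638, 707 and 714 CPM in *lpin-1(RNAi)* libraries, against 384, 344 and 438 CPM in WT libraries (log2 fold change 0.82, SE 0.14, adjusted *p* = 0.00055). On control diets *lgg-1* had 975, 762 and 889 CPM in *lpin-1(RNAi)* libraries, against 368, 294 and 433 CPM in WT libraries (log2 fold change 1.26, SE 0.14, adjusted *p* = 1.0e-05). The groups were far apart on both diets, and the WT libraries of the 2 diets overlapped. *lgg-2*, related to mammalian LC3, was lower in level and tighter between libraries. On glucose-rich diets, *lgg-2* had 118, 134 and 133 CPM in *lpin-1(RNAi)* libraries, against 70.4, 70.7 and 73.99 CPM in WT libraries (log2 fold change 0.84, SE 0.08, adjusted *p* = 2.7e-06). On control diets *lgg-2* had 149, 138 and 139.8 CPM in *lpin-1(RNAi)* libraries, against 70.1, 70.5 and 65.1 CPM in WT libraries (log2 fold change 1.05, SE 0.08, adjusted *p* = 2.0e-07). *lgg-1* made up 88.6 to 88.8% of the ATG8 transcripts per kb in *lpin-1(RNAi)* and 87.7 to 89.7% in WT on glucose-rich diets, and 89.0 to 90.6% in *lpin-1(RNAi)* and 86.0 to 90.7% in WT on control diets, so that its share overlapped between RNAi groups.

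The proteases that cut ATG8 before it is joined to lipid, *atg-4.1* and *atg-4.2*, were both higher. On glucose-rich diets, *atg-4.1* had 57.95, 59.5 and 59.2 CPM in *lpin-1(RNAi)* libraries, against 35.96, 34.1 and 35.2 CPM in WT libraries (log2 fold change 0.75, SE 0.11, adjusted *p* = 0.00017). On control diets *atg-4.1* had 49.4, 64.9 and 54.8 CPM in *lpin-1(RNAi)* libraries, against 31.2, 37.6 and 29.8 CPM in WT libraries (log2 fold change 0.78, SE 0.11, adjusted *p* = 7.9e-05). The rarer *atg-4.2* also rose on both diets. On glucose-rich diets, *atg-4.2* had 18.3, 19.9 and 19.9 CPM in *lpin-1(RNAi)* libraries, against 14.3, 12.2 and 15.9 CPM in WT libraries (log2 fold change 0.46, SE 0.13, adjusted *p* = 0.017). On control diets *atg-4.2* had 22.9, 20.2 and 23.2 CPM in *lpin-1(RNAi)* libraries, against 11.1, 12.4 and 14.7 CPM in WT libraries (log2 fold change 0.79, SE 0.13, adjusted *p* = 0.00027). The groups of *atg-4.2* lay closer on glucose-rich diets, where its call was lost with any 1 of 4 libraries left out (adjusted *p* up to 0.092). Exons of *atg-4.1* overlap *Y87G2A.2* on the other strand by 100 bases.

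Of the 2 genes for ATG16, which places the lipid-joining complex on the membrane, *atg-16.2* rose. On glucose-rich diets, *atg-16.2* had 41.9, 43.2 and 42.4 CPM in *lpin-1(RNAi)* libraries, against 32.5, 28.3 and 35.7 CPM in WT libraries (log2 fold change 0.40, SE 0.12, adjusted *p* = 0.023). On control diets *atg-16.2* had 53.3, 43.9 and 51.6 CPM in *lpin-1(RNAi)* libraries, against 31.1, 26.1 and 35.4 CPM in WT libraries (log2 fold change 0.69, SE 0.12, adjusted *p* = 0.00053). The *lpin-1(RNAi)* libraries were higher throughout, and the call on glucose-rich diets was lost with any 1 of 6 libraries left out (adjusted *p* up to 0.11). On glucose-rich diets, *atg-16.1* had 23.4, 22.4 and 22.4 CPM in *lpin-1(RNAi)* libraries, against 27.4, 23.6 and 26.2 CPM in WT libraries (log2 fold change -0.18, SE 0.12, adjusted *p* = 0.30). On control diets *atg-16.1* had 25.1, 21.3 and 24.9 CPM in *lpin-1(RNAi)* libraries, against 21.8, 18.8 and 26.1 CPM in WT libraries (log2 fold change 0.10, SE 0.12, adjusted *p* = 0.56). *atg-16.1* was called on neither diet. Per kilobase, *atg-16.2* made up 63.9 to 65.5% of the ATG16 transcripts in *lpin-1(RNAi)* and 53.9 to 57.4% in WT on glucose-rich diets, and 67 to 67.7% in *lpin-1(RNAi)* and 57.3 to 58.6% in WT on control diets, with no overlap between RNAi groups.

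The enzymes of conjugation moved less. *atg-5*, the target of the ATG12-like protein, rose by 0.24 and 0.30 on the log2 scale on glucose-rich and control diets (adjusted *p* = 0.042 and 0.011), and its calls were lost with any 1 of 9 libraries left out on glucose-rich diets and without *lpin-1(RNAi)* replicate 1 on control diets (adjusted *p* up to 0.34 and 0.068). *atg-7*, the activating enzyme, was called on glucose-rich diets (0.33, adjusted *p* = 0.0069) and had 0.16 on control diets (adjusted *p* = 0.14). *atg-3*, which transfers ATG8 to lipid, was called on control diets (0.32, adjusted *p* = 0.040) and had 0.26 on glucose-rich diets (adjusted *p* = 0.10), where it was called in the blocked fit (adjusted *p* = 0.0205). The calls of *atg-7* and *atg-3* were lost with any 1 of 2 and 10 libraries left out. The interaction of neither gene passed the threshold (adjusted *p* = 0.77 for *atg-7* and 1.0 for *atg-3*). *lgg-3*, the worm ATG12, and *atg-10*, the enzyme that joins it to ATG-5, were called on neither diet, and *atg-10* was the least counted gene of the 49, at 1.76 to 3.78 CPM.

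**Figure D4:**
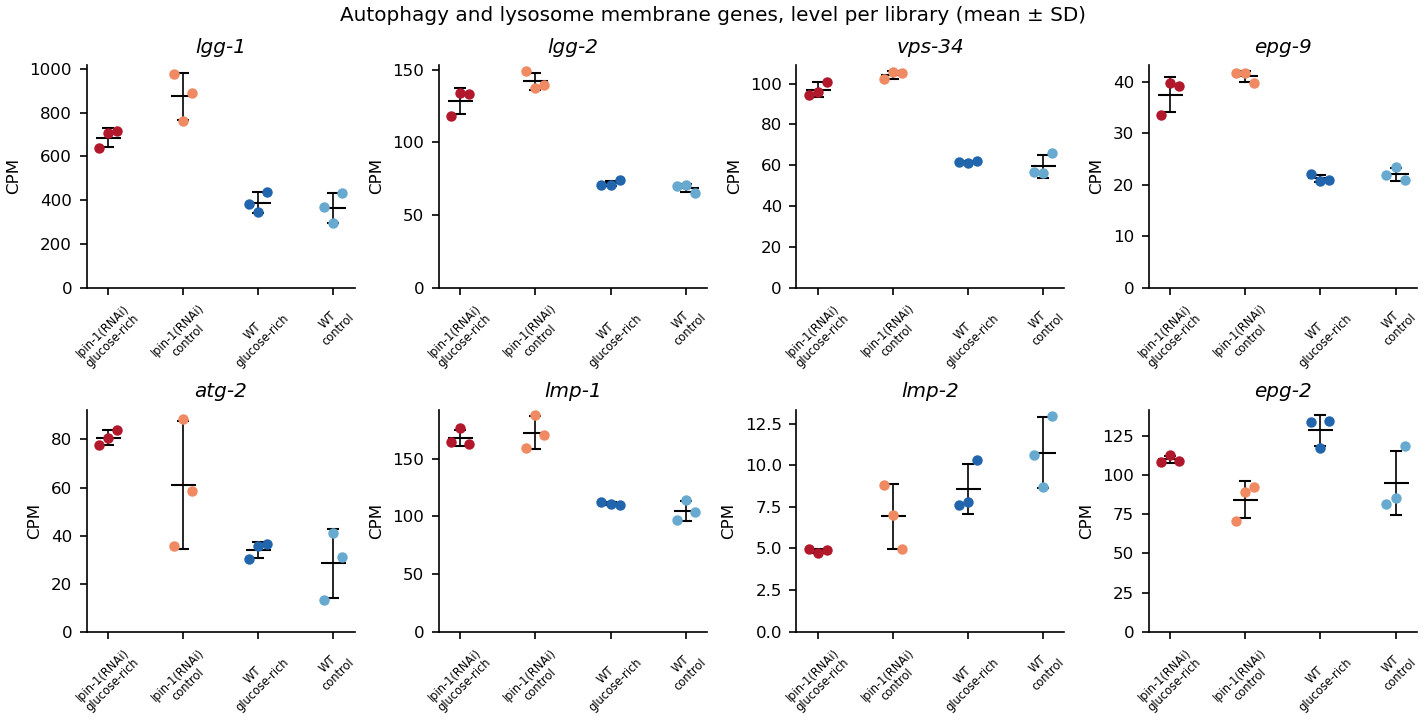
Level in every library (vertical axes, CPM, from 0) of 8 autophagy and lysosome membrane genes in the 4 groups; dots are libraries, the long bar is the mean and the whiskers are the SD of 3. The *lpin-1(RNAi)* libraries of *lgg-1* lie between 638 and 975 CPM and the WT libraries between 294 and 438 CPM, while the libraries of *atg-2* on control diets spread widely and overlap.

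Late in the pathway, *epg-5* makes a tether that lets autophagosomes fuse with lysosomes. On glucose-rich diets, *epg-5* had 50.03, 41.9 and 42.1 CPM in *lpin-1(RNAi)* libraries, against 26.1, 25.9 and 23.01 CPM in WT libraries (log2 fold change 0.84, SE 0.18, adjusted *p* = 0.0033). On control diets *epg-5* had 28.2, 48.1 and 39.8 CPM in *lpin-1(RNAi)* libraries, against 18.2, 27.5 and 21.8 CPM in WT libraries (log2 fold change 0.78, SE 0.18, adjusted *p* = 0.0040). The groups did not overlap, though on control diets replicates 1 and 2 were again the lowest and highest of each group, and its exons add up to 7291 bases. *epg-2*, an adaptor that brings maternal protein granules to LGG-1 in embryos, was not called, with log2 fold changes of -0.22 and -0.18 on glucose-rich and control diets.

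The LAMP-like lysosome membrane genes went opposite ways. On glucose-rich diets, *lmp-1* had 164, 176 and 163 CPM in *lpin-1(RNAi)* libraries, against 113, 110.3 and 109.9 CPM in WT libraries (log2 fold change 0.60, SE 0.09, adjusted *p* = 0.00014). On control diets *lmp-1* had 159, 188 and 171 CPM in *lpin-1(RNAi)* libraries, against 96.7, 114 and 103.6 CPM in WT libraries (log2 fold change 0.72, SE 0.09, adjusted *p* = 1.8e-05). The *lpin-1(RNAi)* libraries of *lmp-1* were above the WT libraries on each diet. On glucose-rich diets, *lmp-2* had 4.94, 4.72 and 4.93 CPM in *lpin-1(RNAi)* libraries, against 7.60, 7.77 and 10.3 CPM in WT libraries (log2 fold change -0.81, SE 0.21, adjusted *p* = 0.011). On control diets *lmp-2* had 8.84, 6.997 and 4.94 CPM in *lpin-1(RNAi)* libraries, against 10.6, 8.69 and 12.9 CPM in WT libraries (log2 fold change -0.62, SE 0.21, adjusted *p* = 0.030). The groups of *lmp-2* overlapped on control diets, where *lpin-1(RNAi)* replicate 1 was above WT replicate 2. That call was lost with any 1 of 4 libraries left out and with library totals (adjusted *p* = 0.19), and the call on glucose-rich diets without WT replicate 3 (adjusted *p* = 0.051). Per kilobase, *lmp-2* made up 2.49 to 2.81% of the 2 transcripts in *lpin-1(RNAi)* and 6.04 to 8.19% in WT on glucose-rich diets, and 2.69 to 5.03% in *lpin-1(RNAi)* and 6.78 to 10.6% in WT on control diets.

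Summed over the V-ATPase genes, the level was 3752 to 3874 CPM in *lpin-1(RNAi)* and 5453 to 5648 CPM in WT on glucose-rich diets, and 3617 to 3852 CPM in *lpin-1(RNAi)* and 6414 to 6659 CPM in WT on control diets. The 28 autophagy and lysosome genes summed to 2488 to 2630 CPM in *lpin-1(RNAi)* and 1743 to 1823 CPM in WT on glucose-rich diets, and to 2676 to 2713 CPM in *lpin-1(RNAi)* and 1621 to 1751 CPM in WT on control diets. Without *lgg-1* the autophagy sums still did not overlap, with 1850 to 1924 CPM in *lpin-1(RNAi)* and 1385 to 1438 CPM in WT on glucose-rich diets, and 1719 to 1914 CPM in *lpin-1(RNAi)* and 1253 to 1338 CPM in WT on control diets. Shares of all counts amount to scaling by library totals, with which the median of all genes was 0.23 on glucose-rich and 0.25 on control diets. As such a share, the V-ATPase genes held 0.394 to 0.398% in *lpin-1(RNAi)* and 0.499 to 0.511% in WT on glucose-rich diets, and 0.388 to 0.449% in *lpin-1(RNAi)* and 0.579 to 0.644% in WT on control diets. The autophagy and lysosome genes held 0.255 to 0.278% in *lpin-1(RNAi)* and 0.158 to 0.168% in WT on glucose-rich diets, and 0.281 to 0.314% in *lpin-1(RNAi)* and 0.147 to 0.166% in WT on control diets.

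Per kilobase of exon the levels within each family spread widely. The V-ATPase gene with the highest level was *vha-2*, at a mean of 462 CPM per kb in *lpin-1(RNAi)* and 668 in WT on glucose-rich diets, and 435 in *lpin-1(RNAi)* and 800.1 in WT on control diets. The single-copy V1 subunits ran on the same scale from 550.4 CPM per kb (*vha-10*) to 164 (*vha-11*) in WT on control diets. Among autophagy genes *lgg-1* stood highest, at 969 CPM per kb in *lpin-1(RNAi)* and 549 in WT on glucose-rich diets, and 1237 in *lpin-1(RNAi)* and 516 in WT on control diets. The mean of *lgg-1* was below that of *vha-2* in WT and above it in *lpin-1(RNAi)* on each diet.

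Glucose-rich diets changed few of these genes within either RNAi group, in comparisons that use the same libraries as those of RNAi. In *lpin-1(RNAi)* worms 1 gene was higher on glucose-rich diets (*vha-11*) and 1 lower (*vha-6*), where 5.52% of all tested genes were called higher and 7.49% lower. In WT worms 0 were higher and 5 lower, all of the V-ATPase (*vha-5*, *vha-6*, *vha-15*, *vha-8* and *vha-16*), where 2.17% were called higher and 3.44% lower. No call exceeded 2-fold, as 2.70% of all tested genes did upward and 2.86% downward in *lpin-1(RNAi)*, and 1.35% and 1.78% in WT. The median log2 fold change of the V-ATPase genes by glucose was -0.01 in *lpin-1(RNAi)* and -0.25 in WT, and that of the autophagy and lysosome genes was -0.05 in *lpin-1(RNAi)* and 0.09 in WT. Over all tested genes, the median by glucose rose with exon length. In *lpin-1(RNAi)* it was -0.15 under 1 kb and 0.30 with at least 4 kb, and in WT -0.09 and 0.18. The part of length in the medians of the members was not tested. Of the 21 V-ATPase genes, 11 lay below 0 in *lpin-1(RNAi)* and 18 in WT. With a library left out, the V-ATPase median in *lpin-1(RNAi)* ranged between -0.13 (without control replicate 2) and 0.03 (without control replicate 1), and that in WT between -0.31 and -0.24. For 14 of them all 3 glucose-rich WT libraries lay below all 3 control WT libraries, as they did for 11.1% of all tested genes, and for *unc-32* they lay above, as for 7.57%. In *lpin-1(RNAi)* the glucose-rich libraries lay below for 1 gene, *vha-6*, where 19.3% of all tested genes did so, and above for 5, where 16.4% did so.

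By edgeR's test without a block, 0 of 28 autophagy and lysosome genes were called for glucose in *lpin-1(RNAi)* and 0 in WT. At an unadjusted *p* under 0.05, 3 and 1 passed (28.1% and 17.4% of all tested genes), and DESeq2 called 0 and 1. The gene called by DESeq2 was *epg-2*, the adaptor of maternal granules. In *lpin-1(RNAi)* it had 108, 113 and 109 CPM on glucose-rich diets, against 70.7, 89.5 and 92.7 CPM on control diets (log2 fold change 0.39, SE 0.14, adjusted *p* = 0.090). In WT it had 134, 117 and 135 CPM on glucose-rich diets, against 81.7, 85.3 and 118.7 CPM on control diets (log2 fold change 0.43, SE 0.14, adjusted *p* = 0.098). WT replicate 3 on control diets reached the glucose-rich libraries. In edgeR's fit with the block, *epg-2* was called higher in *lpin-1(RNAi)* (adjusted *p* = 0.028) and in WT (adjusted *p* = 0.026). For *lgg-1*, the log2 fold change by glucose was -0.35 in *lpin-1(RNAi)* (adjusted *p* = 0.12) and 0.09 in WT (adjusted *p* = 0.80), so that neither passed without a block. With the block, *lgg-1* was called lower in *lpin-1(RNAi)* (adjusted *p* = 0.037). *vha-6* was the 1 gene called by glucose in both RNAi groups, with -0.42 in *lpin-1(RNAi)* (adjusted *p* = 0.0033) and -0.42 in WT (adjusted *p* = 0.0073), in which its libraries did not overlap and its call held under every other setting but the 2-fold threshold and with any library left out. Its interaction was -0.01 (SE 0.11).

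The 5 calls in WT were small. *vha-16*, subunit d, had 319.7, 316 and 321 CPM on glucose-rich diets, against 405, 364 and 387 CPM on control diets (log2 fold change -0.27, SE 0.07, adjusted *p* = 0.042). For *vha-5* the log2 fold change was -0.52 (adjusted *p* = 0.019), for *vha-15* -0.36 (adjusted *p* = 0.041) and for *vha-8* -0.33 (adjusted *p* = 0.033). All glucose-rich WT libraries of these genes lay below all control WT libraries. In *lpin-1(RNAi)* worms the same genes had log2 fold changes by glucose of -0.07 for *vha-16*, 0.09 for *vha-5*, -0.04 for *vha-15* and -0.01 for *vha-8*, and *vha-16* had 247, 237 and 235 CPM on glucose-rich diets, against 259, 251 and 245 CPM on control diets. Apart from *vha-6*, the calls in WT depended on the fit. Those of *vha-5*, *vha-15*, *vha-8* and *vha-16* were lost with any 1 of 4, 9, 9 and 11 libraries left out, 1 member was called lower when only the WT groups were fitted and 2 with no filter on low counts, while DESeq2 called 10 and library totals 8. Over all genes tested, 505 were called lower in the main fit and 339 with only the WT groups. No filter gave 569 lower, DESeq2 691 and library totals 582. At an unadjusted *p* under 0.05, 1 V-ATPase gene was lower and 5 higher in *lpin-1(RNAi)*, where 28.1% of all tested genes passed in either direction, and 15 were lower in WT, where 17.4% passed.

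The glucose effects differed between RNAi groups for *vha-11*. In *lpin-1(RNAi)* it had 149, 142 and 142 CPM on glucose-rich diets, against 108, 129 and 111 CPM on control diets (log2 fold change 0.32, adjusted *p* = 0.022). In WT it had 226, 231 and 224 CPM on glucose-rich diets, against 259, 276 and 263 CPM on control diets (log2 fold change -0.23, adjusted *p* = 0.14). The libraries did not overlap in either RNAi group, and the directions were opposite. The interaction, the glucose effect in *lpin-1(RNAi)* minus that in WT, was 0.55 (SE 0.12, adjusted *p* = 0.032). The interaction was called higher for 1 of 49 genes and lower for 0, where 1.05% of all tested genes were called higher and 0.558% lower. At an unadjusted *p* under 0.05, 8 were higher and 1 lower, where 9.94% of all tested genes passed in either direction, and DESeq2 called 3 higher and 0 lower. Over all genes DESeq2 called the interaction of 261 higher and 200 lower, against 154 and 82 by edgeR. The interaction of *vha-11* was lost with any 1 of 10 libraries left out (adjusted *p* up to 0.15) and with no filter on low counts (adjusted *p* = 0.079), and its call for glucose in *lpin-1(RNAi)* was lost with any 1 of 5.

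Over the 21 V-ATPase genes the interaction was above 0 for 19, with a median of 0.24, and over the 28 autophagy and lysosome genes it was below 0 for 21, with a median of -0.07, where the median of all tested genes was 0.03. The exceptions in the V-ATPase were *unc-32* (-0.10) and *vha-6* (-0.01). The highest interaction was that of *vha-5* (log2 fold change 0.61, SE 0.16, adjusted *p* = 0.10), and the lowest that of *lgg-1* (log2 fold change -0.44, SE 0.20, adjusted *p* = 0.48). In other terms, the change by *lpin-1* RNAi was smaller in size on glucose-rich than on control diets for 20 of 21 V-ATPase and 19 of 28 autophagy and lysosome genes. The share of all tested genes with a smaller change was not counted. Of all tested genes, 2353 were called higher and 2321 lower on glucose-rich diets, against 2869 and 2903 on control diets. The log2 fold change of *lpin-1* itself was -0.56 on glucose-rich and -0.82 on control diets. Its interaction was not called (edgeR adjusted *p* = 0.59). The part of the knockdown in the smaller changes was not tested. By edgeR's test without a block, the difference between diets passed the threshold for *vha-11* alone of the 49 genes. DESeq2 and the block also called *vha-5* (adjusted *p* = 0.0280 and 0.0300) and *vha-12* (adjusted *p* = 0.0111 and 0.0405). The V-ATPase median was 0.10 without *lpin-1(RNAi)* control replicate 2 and 0.14 without *lpin-1(RNAi)* control replicate 3, and the autophagy median ranged between -0.14 and -0.06 with a library left out.

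**Figure D5:**
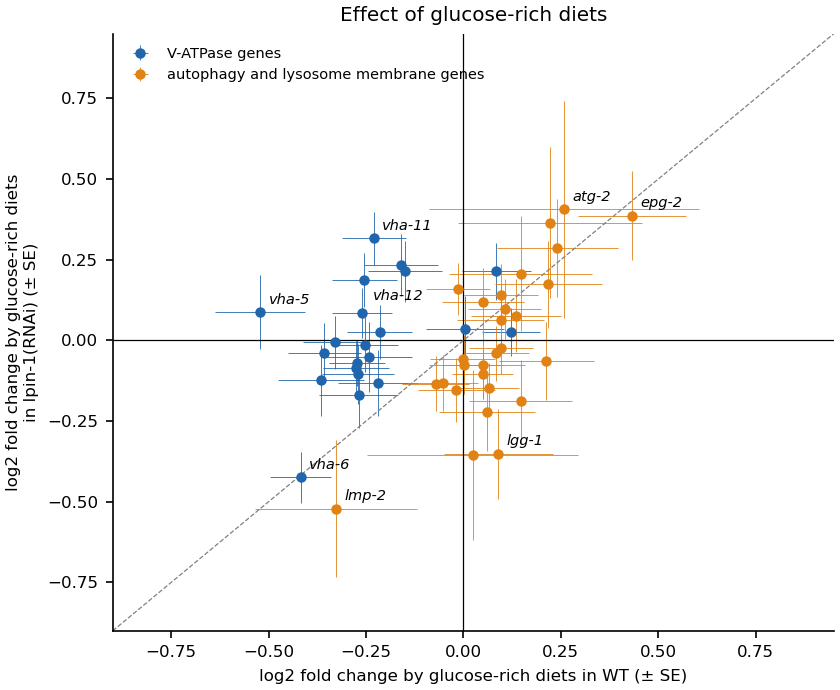
Log2 fold change by glucose-rich diets in *lpin-1(RNAi)* (vertical axis, with SE) against that in WT (horizontal axis, with SE) for the 21 V-ATPase genes (blue) and 28 autophagy and lysosome membrane genes (orange); the dashed line marks equal effects. Most V-ATPase genes lie left of 0 on the WT axis and around 0 on the *lpin-1(RNAi)* axis, *vha-11* lies at 0.32 on the *lpin-1(RNAi)* axis and -0.23 on the WT axis, and *vha-6* lies on the dashed line.

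Other genes of the pathway were taken from 5 lists, whose counts stand beside 16% of all tested genes called higher and 15.8% lower in *lpin-1(RNAi)* on glucose-rich diets, and 19.5% higher and 19.8% lower on control diets. Of 15 genes of TORC1 and nutrient sensing, which restrain or start autophagy, 1 was higher and 3 lower in *lpin-1(RNAi)* on glucose-rich diets, and 3 were higher and 1 lower on control diets. *sesn-1*, the worm sestrin, was lower on both (log2 fold changes -0.73 and -0.80, adjusted *p* = 0.00019 and 6.6e-05). Of 7 transcription regulators, 3 were higher and 1 lower on glucose-rich diets, and 4 were higher and 1 lower on control diets. The lower one was *nhr-31*, a nuclear receptor known to drive V-ATPase genes in the excretory cell. On glucose-rich diets, *nhr-31* had 24.7, 21 and 25.4 CPM in *lpin-1(RNAi)* libraries, against 43.8, 31.6 and 41.6 CPM in WT libraries (log2 fold change -0.71, SE 0.16, adjusted *p* = 0.0039). On control diets *nhr-31* had 32.2, 26.2 and 28 CPM in *lpin-1(RNAi)* libraries, against 61.1, 45 and 66.8 CPM in WT libraries (log2 fold change -1.0, SE 0.16, adjusted *p* = 0.00021). The groups overlapped on neither diet. *pha-4*, the FoxA factor needed for autophagy in food-restricted worms, was higher on glucose-rich and control diets (log2 fold changes 0.57 and 0.77, adjusted *p* = 0.023 and 0.0034). *mxl-3*, a repressor of lysosomal lipase genes, was also higher on both (0.61 and 0.50, adjusted *p* = 0.0053 and 0.014). Glucose-rich diets raised both regulators, *pha-4* by 0.61 in *lpin-1(RNAi)* and 0.81 in WT and *mxl-3* by 0.69 in *lpin-1(RNAi)* and 0.59 in WT on the log2 scale (adjusted *p* from 0.0058 to 0.033).

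Of 7 genes of selective autophagy, 4 were higher and 1 lower in *lpin-1(RNAi)* on each diet. *sqst-1*, the worm p62 that carries ubiquitinated cargo to LGG-1, changed more than any of the 49 genes. On glucose-rich diets, *sqst-1* had 458, 508 and 476 CPM in *lpin-1(RNAi)* libraries, against 41.97, 36.9 and 41.8 CPM in WT libraries (log2 fold change 3.58, SE 0.15, adjusted *p* = 2.3e-09). On control diets *sqst-1* had 459, 685 and 577 CPM in *lpin-1(RNAi)* libraries, against 28.3, 35.8 and 32.5 CPM in WT libraries (log2 fold change 4.15, SE 0.15, adjusted *p* = 4.8e-10). The lowest *lpin-1(RNAi)* library was far above the highest WT library. *allo-1*, the adaptor for paternal mitochondria, had 419, 459 and 437 CPM in *lpin-1(RNAi)* libraries, against 148, 144 and 139 CPM in WT libraries on glucose-rich diets (log2 fold change 1.61, SE 0.08, adjusted *p* = 8.1e-09) and 639, 589 and 636 CPM in *lpin-1(RNAi)* libraries, against 151, 141 and 138 CPM in WT libraries on control diets (log2 fold change 2.12, SE 0.08, adjusted *p* = 5.7e-10). Its rise was smaller on glucose-rich diets (interaction -0.51, adjusted *p* = 0.031).

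Of 21 genes of lysosome fusion and the lysosome membrane, 9 passed the test on each diet, all of them higher in *lpin-1(RNAi)*. The largest rises were those of the Niemann-Pick C1 genes *ncr-1* and *ncr-2*, which move cholesterol out of lysosomes, with log2 fold changes of 1.22 and 1.08 on glucose-rich diets and 1.59 and 1.12 on control diets. The 17 lysosomal hydrolases split, with 1 higher and 6 lower on glucose-rich diets and 4 higher and 6 lower on control diets. *nuc-1*, the lysosomal DNase, had 30.9, 26.99 and 28.9 CPM in *lpin-1(RNAi)* libraries, against 116, 116 and 155 CPM in WT libraries on control diets (log2 fold change -2.15, SE 0.13, adjusted *p* = 3.0e-08). *asah-1*, an acid ceramidase, had 4.86, 4.66 and 6.20 CPM in *lpin-1(RNAi)* libraries, against 21.97, 23.4 and 34.02 CPM in WT libraries on glucose-rich diets (log2 fold change -2.34, SE 0.18, adjusted *p* = 5.5e-07). The libraries of *nuc-1* and *asah-1* did not overlap between RNAi groups. The sphingomyelinase *asm-3* had 0, 0.0340 and 0.163 CPM in *lpin-1(RNAi)* libraries, against 1.85, 1.995 and 1.56 CPM in WT libraries on glucose-rich diets, and 0.186, 0.181 and 0.319 CPM in *lpin-1(RNAi)* libraries, against 3.52, 3.63 and 7.28 CPM in WT libraries on control diets, too few in *lpin-1(RNAi)* for a fold, and it overlaps *W03G1.10* on the other strand.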

How the data were processed

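For each of the 12 libraries the authors deposited expected counts per WormBase gene, not normalized. The submitters' processing notes name STAR 2.7.0e, RSEM 1.3.1 and DESeq2 1.22.2 and the builds WBcel235 and ce11. Kits were stranded, and the strand setting of the counting is not given in the sources used here, so overlapping genes on either strand are named. RSEM divides reads that match several genes among them, and 1903 genes but 0 of the 49 had fractional values. The counts were rounded. Symbols were joined by ID for 43818 of 46778 genes, and exon lengths are the merged exons of the WBcel235 annotation.

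The test used edgeR 4.0.16 under R 4.3.3, with filterByExpr (minimum count 10), TMM scaling and 1 quasi-likelihood model with a mean for each group and 8 residual degrees of freedom. Within groups, counts of replicates differed by a chi-square of 8.79 or more per gene, so no library is a copy. A call needed a Benjamini-Hochberg adjusted *p* under 0.05, and calls above 2-fold were counted too. The members and lists were chosen with earlier results of these data known. Values in every library are given for *lpin-1*, the 6 called members with the largest change in each comparison, members called in the interaction, the a subunits and gene pairs of like function; *unc-51* and *epg-2* were added after their values were seen. Of each other list at most the 2 most changed called genes of a comparison are named. The replicate numbers share no stated origin, and the main model held no block for them. Deviations of same-numbered libraries from their group means correlated above 0.1 in 3 of 3 pairs of each RNAi comparison (0.20 to 0.35 on glucose-rich and 0.28 to 0.53 on control diets), which were taken as paired, and in 1 and 2 of 3 pairs for glucose in *lpin-1(RNAi)* and WT (lowest 0.04 and 0.06), which were not. Alternatives were DESeq2 1.42.0, RLE scaling, library totals, other filters, the compared groups alone, the replicate number as a block and each library left out. The test was tried on simulated data. Promoter motifs were not analysed here.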

Additional observations from a re-analysis of the deposited data

Results flagged for a closer look

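The glucose effect on *vha-11* (subunit C of V1) differed between RNAi groups by the test of the difference itself. The interaction was 0.55 on the log2 scale (adjusted *p* = 0.032, edgeR quasi-likelihood test), and all 3 libraries moved apart in each RNAi group, upward with glucose in *lpin-1(RNAi)* and downward in WT. By the same test, the call was lost with any 1 of 10 libraries left out (adjusted *p* up to 0.15). It was also lost with no filter on low counts (adjusted *p* = 0.079), so it depends on the fit.

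The glucose effect on *vha-12* (subunit B of V1) went opposite ways without passing that test. In *lpin-1(RNAi)* it had 231, 226 and 229 CPM on glucose-rich diets, against 196, 218 and 188 CPM on control diets, and in WT it had 329.7, 341 and 324 CPM on glucose-rich diets, against 406, 421 and 359 CPM on control diets. The interaction was 0.44 on the log2 scale (adjusted *p* = 0.10), so that the difference is not established. It was called by DESeq2 and with the replicate block.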

How the results depend on the processing

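The counts of members called for *lpin-1* RNAi depended mostly on the fold threshold. With more than 2-fold required, 3 were higher and 6 lower on control diets and 1 higher and 1 lower on glucose-rich diets. Library totals gave 13 lower on glucose-rich diets. With a library left out, 11 to 21 were higher and 19 to 21 lower on glucose-rich diets, and 18 to 21 higher and 19 to 21 lower on control diets. For glucose in *lpin-1(RNAi)*, 0 were higher with library totals, no filter, only the groups compared or the fold threshold, which also left 0 lower, and with a library left out 0 to 2 were higher and 1 to 5 lower. For glucose in WT, 1 was higher with DESeq2 and with no filter. Members lower in WT numbered 8 with library totals, 10 with DESeq2, 2 with no filter, 1 with only the groups compared and 0 with the fold threshold. With a library left out they numbered 1 to 7, and 0 to 1 were higher. The interaction was higher for 3 with DESeq2 and for 0 with no filter or the fold threshold, and for 0 to 2 with a library left out. It was lower for 0 throughout. The causes of these shifts were not tested. Of the log2 fold changes of single members under the alternatives, 4534 kept their side of the threshold, 257 lost and 60 gained a call. The sign changed in 140, and no called one changed sign.

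The replicate numbers were not taken as pairing the libraries of different diets. Their deviations correlated above 0.1 in 1 of 3 same-numbered pairs in *lpin-1(RNAi)* and 2 of 3 in WT. The highest correlations were 0.16 and 0.39. With the number as a block, 3 members were higher and 2 lower for glucose in *lpin-1(RNAi)*, 1 higher and 9 lower for glucose in WT, and 3 higher in the interaction. Over all tested genes the block called 1561 higher and 1850 lower for glucose in *lpin-1(RNAi)*, against 811 and 1100 without it. For glucose in WT it called 554 and 968, against 319 and 505, and for the interaction 271 and 217, against 154 and 82. Among members, the block gave 23 higher and 21 lower for *lpin-1* RNAi on glucose-rich diets and 21 and 21 on control diets. Of all tested genes it called 2986 higher and 2806 lower on glucose-rich diets, and 3379 and 3381 on control diets.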
